A study of Mus musculus with 12 samples.

Results

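Cholesterol synthesis, and the SREBP system that governs it, were followed as 30 genes in single liver cells of neonatal mice with and without anemia. The 30 genes were matched by symbol to the 32285 features of the count tables, and all 30 were found. They fall into 8 genes of the mevalonate arm (from acetyl-CoA to squalene), 10 of the sterol arm (from squalene to cholesterol), 5 regulators, 2 genes of sterol uptake and transport, 3 efflux transporters and 2 esterification enzymes. The list groups genes by function and was drawn up with earlier results of these data known.

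Cells build cholesterol from acetyl-CoA through mevalonate, isoprenoids, squalene and lanosterol. SREBP-2, made from Srebf2, is the transcription factor that drives most enzymes of this route, and SREBP-1, made from Srebf1, drives mainly fatty acid synthesis. The escort protein SCAP carries both from the endoplasmic reticulum to the Golgi apparatus, where they are cut and set free, and the INSIG proteins hold SCAP back when sterols are plentiful. The liver is the main organ that makes cholesterol, ships it in lipoproteins, secretes it into bile and turns it into bile acids.

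The livers came from 12 C57BL6/J mouse pups at postnatal day 11, 6 naive controls and 6 with phlebotomy-induced anemia, with 1 droplet-based scRNA-seq library per mouse. In anemic pups, 20 µL of blood per g of body weight was drawn from the facial vein 5 times between postnatal days 2 and 10, while control pups received a sham prick each day and were not bled. Livers were digested, and the cells were pelleted at low speed before capture. All 12 libraries carry 1 batch label. In each droplet the mRNA of a cell receives a cell barcode and unique molecular identifiers (UMIs), so that each captured molecule is counted once. Libraries held 46252146 to 74545930 UMIs, and 206146 of 207537 barcodes were kept as cells. No pair of libraries shared more than 121 barcodes, or more than 0.694% of the smaller library. Cells were grouped into clusters without use of the 30 genes or of the related lists below, and the clusters were named from marker genes. Names ending in -like rest on these markers alone. This gave 14 classes, and 25637 cells stayed unnamed. By Xist and Y-linked transcripts, 4 control and 2 anemic pups read as female.

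Hepatocyte-like cells numbered 17609, 7230 from controls and 10379 from anemic mice, with 723 to 2779 per mouse. All 10 hepatocyte markers were detected in them. Summed UMIs of this class ranged from 1433211 (anemia 3) to 4516492 (anemia 5), and anemia 2 and anemia 3 had the fewest of all mice. The 10 markers summed to 132820 to 147130 CPM of all UMIs in controls and 94459 to 135000 in anemic mice. By gene, the mean was lower in anemic mice for Alb (40010 and 24003), Apoa1, Ahsg, Ttr, Fga and Hnf4a. For Apoc3 (1090.8 and 5288.5), Apoa2, Fgb and Serpina1c the mean was higher. Erythroid markers in the same cells summed to 462 to 2488 CPM of all UMIs in controls and 2308 to 7557 in anemic mice. Monocyte markers summed to 1049.8 to 1327 CPM of all UMIs in controls and 525 to 766 in anemic mice. Stellate and fibroblast markers summed to 105 to 133 and 32.1 to 83.8, both lists without overlap between the groups. The sums of the erythroid, monocyte, and stellate and fibroblast markers were not split by gene. They do not show which cells the RNA came from. In anemia 2 and anemia 3 the median mitochondrial share of these cells was 0.714% and 1.02%, against 1.94% to 3.15% in the other mice. The part of these shifts in the changes below was not tested. Below, CPM (UMIs scaled to a common library total) without a further word refers to UMIs of the tested genes, scaled by TMM factors, a correction for a few abundant genes taking much of a library. Log2 fold changes are anemia over control from edgeR's quasi-likelihood test on UMIs summed per mouse, n = 6 per group, with p-values adjusted by Benjamini-Hochberg over all genes tested in the class. A gene counted as called at an adjusted p below 0.05, and these p-values measure the spread between mice. The share of all genes without overlap between the groups was not counted, so statements on overlap below have no background share.

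Hmgcs1 and Insig2, an enzyme that fell and a regulator that rose in all 5 hepatocyte-like clusters tested below, are shown first with the 200 bases before their start sites, from RefSeq (GRCm38.p6). Capitals mark 3 searched motifs on either strand. These are TCACNCCA, a core of the sterol regulatory element that SREBPs bind, CCAAT, the box bound by NF-Y, and GGGCGG, the GC box bound by Sp1. On the other strand the last pair read ATTGG and CCGCCC, and TCACNCCA and CCAAT can share the letters CCA. Insig2 has further start sites in the table, and the pair that overlaps no annotated exon is shown.
Hmgcs1, chr13:119690151-119690350, plus strand: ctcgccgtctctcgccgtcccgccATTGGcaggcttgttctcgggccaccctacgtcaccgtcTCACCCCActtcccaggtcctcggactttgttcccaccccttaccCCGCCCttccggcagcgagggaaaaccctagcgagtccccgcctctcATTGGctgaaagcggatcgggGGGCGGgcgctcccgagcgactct
Insig2, upstream start, chr1:121332590-121332789, minus strand: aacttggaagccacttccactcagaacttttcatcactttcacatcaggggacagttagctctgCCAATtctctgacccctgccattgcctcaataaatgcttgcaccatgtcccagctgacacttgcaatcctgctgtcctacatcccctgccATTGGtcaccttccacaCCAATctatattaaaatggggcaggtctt
Insig2, second start, chr1:121328025-121328224, minus strand: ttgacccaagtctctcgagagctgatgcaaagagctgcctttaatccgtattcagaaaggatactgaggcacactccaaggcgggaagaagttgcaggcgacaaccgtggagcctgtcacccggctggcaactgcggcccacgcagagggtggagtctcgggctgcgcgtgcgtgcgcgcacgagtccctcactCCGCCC
The Hmgcs1 window held 1 sterol element core at 137 bases before the start, CCAAT boxes at 176 and 45 bases and GC boxes at 92 and 24 bases. The Insig2 windows held CCAAT boxes at 136, 46 and 29 bases before the upstream start and a GC box 6 bases before the second, and TCACNCCA was in neither.

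Promoter sequences were given for 25 of the 30 genes, in 34 windows. TCACNCCA was found in the windows of 3 genes, Hmgcs1, Msmo1 and Srebf2, against 2.93% of all 32851 windows of this length. CCAAT was found in 21 of the 34 windows, against 29.3% of all windows, and GGGCGG in 22, against 31.0%. No test was made, and a match is a string of letters, not a measured binding site. The sterol element cores are printed below within 30 bases each, to show how the letters differ between the genes.
Hmgcs1, chr13:119690203-119690232, plus strand: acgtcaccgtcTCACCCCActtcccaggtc
Msmo1, chr8:64733737-64733766, minus strand: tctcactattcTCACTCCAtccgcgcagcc
Srebf2, chr15:82147096-82147125, plus strand: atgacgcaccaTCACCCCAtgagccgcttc
Counted from the RefSeq start, the core stood 137 bases before it in Hmgcs1, 177 in Msmo1 and 162 in Srebf2. All 200 bases before the RefSeq start of Msmo1 fall in GENCODE exons, so that in that annotation its core lies inside the gene, downstream of the first base. The cores of Hmgcs1 and Srebf2 lie before the GENCODE gene start. Hmgcs1 and Srebf2 carry the same 8 letters, and Msmo1 differs from them at the free position.

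In hepatocyte-like cells the genes of cholesterol synthesis were lower in anemic mice, and Insig2 was higher. Of the 30 genes, 29 passed the filter on low counts, 22 were called, 21 of them fell and 1 rose. Over all genes tested in these cells, 5208 of 11335 (45.9%) were called, 24.1% lower and 21.8% higher, and of the 29 tested pathway genes 75.9%. The median log2 fold change of the 29 genes was -0.77, against -0.05 over all genes tested. Both synthesis arms together had 14 of 18 genes called, all 14 lower. Without TMM factors the median of all genes was -0.25, calls over all genes were 35.0% lower of 48.1%, and the median of the 29 genes was -0.97, still below that of all genes. With cells clustered more coarsely, at resolution 1, the median of the 29 genes was -0.51, against -0.04 over all genes, and 16 genes were called lower and 2 higher (27.8% of all genes lower, of 56.1% called), the added one being Ebp (adjusted p = 0.0454), while Mvk, Fdps, Fdft1, Hsd17b7 and Stard4 were no longer called (adjusted p 0.0503 to 0.663). The 7 genes not called were Pmvk, Acat2, Tm7sf2, Ebp, Insig1, Abcg5 and Soat1. Of these, Abcg5 was called under 10 of 24 other settings and Acat2 under 9, all lower, and Ebp and Tm7sf2 under 1 each. Npc1l1 had 0 of 35899734 UMIs, which allows a level of up to 0.0836 CPM of all UMIs (3 UMIs, counting error only). Such class sums cannot tell fewer cells of one kind from less RNA per cell.

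**Figure D1:**
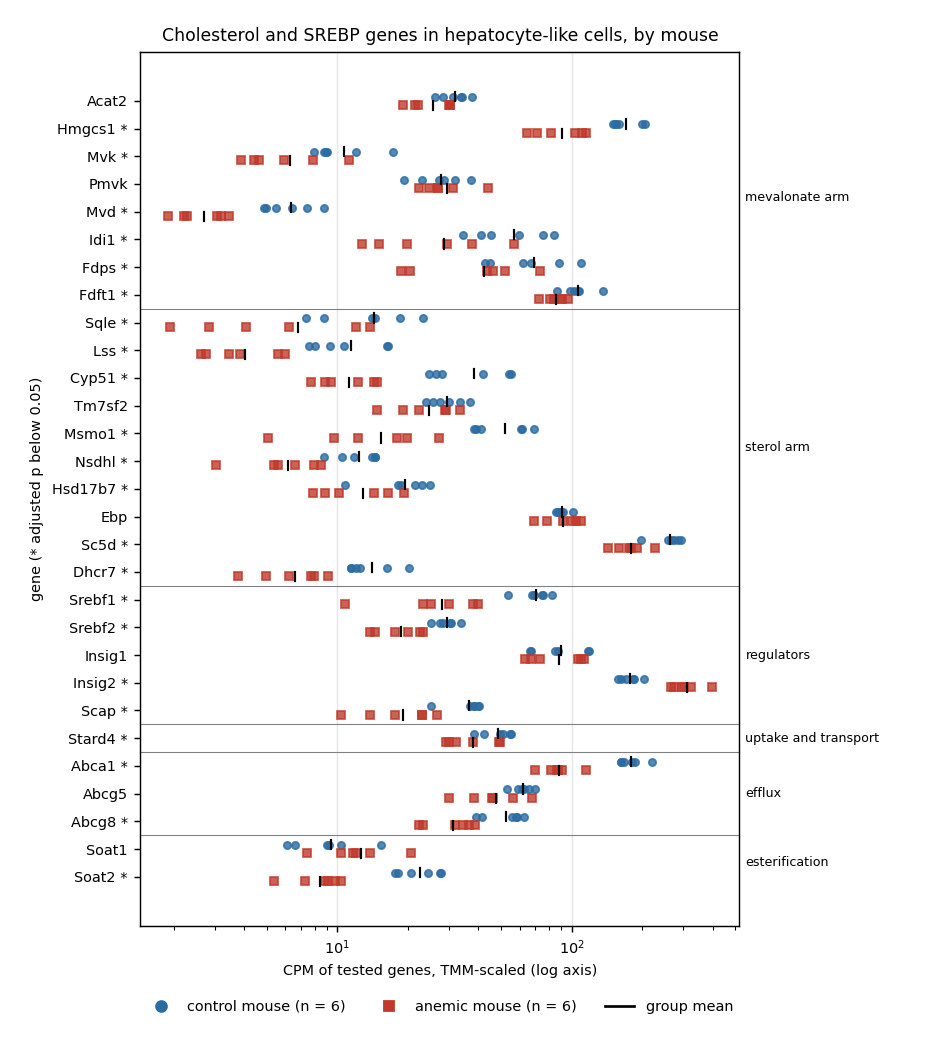
Level of the 29 tested genes in hepatocyte-like cells of each mouse, on a log axis of TMM-scaled CPM of tested genes. Circles are the 6 control mice, squares the 6 anemic mice, black ticks the group means, and asterisks mark the 22 genes with an adjusted p below 0.05. For Cyp51 all 6 anemic mice sit left of all 6 control mice, for Insig2 they all sit right, and for Ebp and Insig1 the groups lie over each other.

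In the mevalonate arm 6 of 8 genes fell. Hmgcs1 (chr13:119690379-119708260 on GRCm38), the cytosolic synthase that makes HMG-CoA, stood at 149.6 to 205 CPM (median 157) in the control mice and 64.3 to 116 CPM (median 92.9) in the anemic mice (log2 fold change -0.90, SE 0.14, adjusted p = 0.000101), and the groups did not overlap. Mvk, mevalonate kinase, stood at 7.99 to 17.2 CPM (median 9.01) in the control mice and 3.86 to 11.2 CPM (median 5.26) in the anemic mice (log2 fold change -0.83, SE 0.26, adjusted p = 0.0165). Mvd, which decarboxylates mevalonate diphosphate, stood at 4.88 to 8.79 CPM (median 5.94) in the control mice and 1.89 to 3.47 CPM (median 2.69) in the anemic mice (log2 fold change -1.27, SE 0.24, adjusted p = 0.000488). The groups overlapped for Mvk and not for Mvd, which rested on 98 control and 40 anemic UMIs. Idi1 (chr13:8885501-8892451), the isopentenyl diphosphate isomerase, stood at 34.5 to 84.5 CPM (median 52.5) in the control mice and 12.7 to 56.7 CPM (median 24.7) in the anemic mice (log2 fold change -1.11, SE 0.31, adjusted p = 0.00753). Fdps, farnesyl diphosphate synthase, stood at 42.7 to 109.7 CPM (median 64.4) in the control mice and 18.8 to 73.5 CPM (median 44.9) in the anemic mice (log2 fold change -0.77, SE 0.30, adjusted p = 0.0438). Fdft1, squalene synthase, stood at 86.6 to 136 CPM (median 104) in the control mice and 72.3 to 96.9 CPM (median 87.0) in the anemic mice (log2 fold change -0.30, SE 0.10, adjusted p = 0.0268). In all 3 of these last genes the highest anemic mice reached into the control range. The call of Fdps was lost when control 1, 3, 5 or 6 or anemia 1, 4 or 5 was left out (adjusted p 0.0538 to 0.121), and that of Fdft1 without control 1 (adjusted p = 0.0712). Acat2, which joins acetyl-CoA units at the head of the route, missed the threshold (log2 fold change -0.35, SE 0.14, adjusted p = 0.0522), and Pmvk, phosphomevalonate kinase, gave 0.04 ± 0.17 (adjusted p = 0.875), a value that changed sign under other settings.

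In the sterol arm 8 of 10 genes fell, and in the class sums the largest decreases of the pathway were here. Inside the clusters described below, the largest decrease among tested genes was in the mevalonate arm in clusters 12, 22 and 28 (-1.52, -1.51 and -1.56). In clusters 23 and 26 it was in the sterol arm (-1.54 and -1.49). In clusters 12, 22 and 28 only 5, 2 and 3 of the 10 sterol-arm genes passed the count filter, against 6 of 8 mevalonate genes in each. The arms therefore cannot be ranked there. Cyp51 (chr5:4081145-4104746), the lanosterol demethylase, stood at 24.7 to 55.3 CPM (median 35.0) in the control mice and 7.73 to 14.8 CPM (median 10.9) in the anemic mice (log2 fold change -1.83, SE 0.24, adjusted p = 1.78e-05). Msmo1 (chr8:64718139-64733792), which oxidizes the methyl groups left after that step, stood at 38.4 to 69.4 CPM (median 50.9) in the control mice and 5.04 to 27.2 CPM (median 15.2) in the anemic mice (log2 fold change -1.83, SE 0.28, adjusted p = 6.36e-05). Lss, lanosterol synthase, stood at 7.61 to 16.5 CPM (median 10.0) in the control mice and 2.62 to 5.98 CPM (median 3.66) in the anemic mice (log2 fold change -1.55, SE 0.28, adjusted p = 0.000253). For these 3 enzymes every anemic mouse was below every control mouse. Sqle, squalene epoxidase, stood at 7.32 to 23.1 CPM (median 14.3) in the control mice and 1.93 to 13.8 CPM (median 5.16) in the anemic mice (log2 fold change -1.35, SE 0.39, adjusted p = 0.00989), with overlapping groups. Nsdhl, the dehydrogenase that follows Msmo1, stood at 8.77 to 14.5 CPM (median 12.95) in the control mice and 3.04 to 8.49 CPM (median 6.09) in the anemic mice (log2 fold change -1.03, SE 0.22, adjusted p = 0.00123). Dhcr7, which reduces 7-dehydrocholesterol to cholesterol, stood at 11.4 to 20.2 CPM (median 12.3) in the control mice and 3.78 to 9.12 CPM (median 6.96) in the anemic mice (log2 fold change -1.13, SE 0.22, adjusted p = 0.000625). The groups did not overlap for Nsdhl or Dhcr7. Sc5d, the sterol desaturase, stood at 199 to 294 CPM (median 269) in the control mice and 143 to 226 CPM (median 177) in the anemic mice (log2 fold change -0.55, SE 0.12, adjusted p = 0.00101). Hsd17b7, the ketone reductase of the demethylation steps, stood at 10.8 to 24.8 CPM (median 20.0) in the control mice and 7.87 to 19.2 CPM (median 12.3) in the anemic mice (log2 fold change -0.67, SE 0.23, adjusted p = 0.0242). Both had overlapping groups, and the call of Hsd17b7 was lost without control 1, 5 or 6 or anemia 1, 5 or 6 (adjusted p 0.0506 to 0.0626). Ebp, the sterol isomerase, and Tm7sf2, a sterol reductase, were not called, with 0.02 ± 0.11 and -0.28 ± 0.18 (SE) on the log2 scale.

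Among the regulators, Insig2 rose and Srebf1, Srebf2 and Scap fell. Insig2 (chr1:121304353-121332589) stood at 158 to 204 CPM (median 177) in the control mice and 266 to 398 CPM (median 299) in the anemic mice, without overlap (log2 fold change 0.80, SE 0.10, adjusted p = 1.59e-05). It was the only one of the 29 genes called higher in these cells. Srebf1 stood at 53.4 to 82.2 CPM (median 71.9) in the control mice and 10.8 to 40.0 CPM (median 27.6) in the anemic mice (log2 fold change -1.27, SE 0.19, adjusted p = 6.24e-05). Srebf2 stood at 25.2 to 33.8 CPM (median 29.3) in the control mice and 13.8 to 23.2 CPM (median 18.8) in the anemic mice (log2 fold change -0.66, SE 0.14, adjusted p = 0.000921). For both transcription factors every anemic mouse was below every control mouse. Scap stood at 25.2 to 40.5 CPM (median 38.4) in the control mice and 10.4 to 26.6 CPM (median 20.3) in the anemic mice (log2 fold change -0.87, SE 0.18, adjusted p = 0.000787), and control 5, the lowest control, fell within the anemic range. Insig1, the partner of Insig2, gave -0.03 ± 0.18 (SE, adjusted p = 0.895), and its sign changed under other settings. With cells limited to a mitochondrial share of at most 10%, 17 of the 29 genes were called, 16 lower, against 19.6% of all genes, 9.50% lower, the median of the 29 genes was -0.59, and Srebf2, Scap, Sqle, Hsd17b7 and Stard4 were no longer called (adjusted p = 0.118, 0.151, 0.0868, 0.209 and 0.540).

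The transporters and the esterification enzymes that changed all fell. Abca1 (chr4:53030787-53159895), which loads cellular cholesterol onto apolipoprotein A-I, stood at 162 to 221 CPM (median 174) in the control mice and 70.0 to 115 CPM (median 87.1) in the anemic mice (log2 fold change -1.01, SE 0.11, adjusted p = 4.37e-06). Abcg8, a subunit of the pump that secretes sterols into bile, stood at 39.0 to 62.4 CPM (median 56.7) in the control mice and 22.3 to 38.6 CPM (median 33.1) in the anemic mice (log2 fold change -0.71, SE 0.15, adjusted p = 0.000999). Soat2, which makes cholesteryl esters for lipoproteins, stood at 17.6 to 27.7 CPM (median 22.4) in the control mice and 5.38 to 10.4 CPM (median 8.98) in the anemic mice (log2 fold change -1.41, SE 0.17, adjusted p = 7.22e-06). In each of the 3 the groups did not overlap. Stard4, a cytosolic sterol carrier, stood at 38.4 to 55.3 CPM (median 50.3) in the control mice and 29.2 to 49.5 CPM (median 35.1) in the anemic mice (log2 fold change -0.37, SE 0.14, adjusted p = 0.0482), with overlapping groups, and its call was lost without any 1 of 8 mice, controls 1, 3, 5 and 6 and anemia 1, 2, 5 and 6 (adjusted p 0.0718 to 0.117). Abcg5, the other subunit of the biliary pump, whose gene overlaps Abcg8 on the opposite strand, gave -0.36 ± 0.15 (adjusted p = 0.0542), and Soat1 gave 0.40 ± 0.25 (adjusted p = 0.215). Without anemia 2 and anemia 3, 22 of the 29 genes were called, 21 lower and 1 higher, against 44.8% of all genes, with Acat2 gained (adjusted p = 0.0215) and Fdft1 lost (adjusted p = 0.138).

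Hepatocyte-like cells fell into 6 clusters, 5 of which had enough cells in every mouse to be fitted alone. The leading genes of cluster 12 included Rbp4 and Apcs, cluster 26 was led by Rbp4, Ahsg and Apcs, clusters 22 and 28 by Uox together with Fabp1 or Gnmt, and cluster 23 by Apob and Cps1. Cluster 23 differed from the others in its median mitochondrial share, 16.5% against 0.963% to 2.33%, and in depth, with a median of 3323.5 UMIs per cell against 712 to 2603. It supplied 47.7% to 58.1% of the hepatocyte-like UMIs of each control mouse and 14.7% to 26.3% of those of each anemic mouse. Clusters 22 and 28 took larger shares, with means of 3.80% and 9.11% of the UMIs in controls and 10.7% and 22.5% in anemic mice. The sixth, cluster 71 with 151 cells, had 5 to 25 cells per mouse and was not fitted alone. It was led by Csta3, Orm1 and Asprv1, and 6 of its 10 leading genes also led a neutrophil-like cluster, so that its hepatocyte-like name, given by the fixed markers, is doubtful. Without it 21 of the 29 genes were called, 20 lower and 1 higher, against 47.8% of all genes, and Stard4 lost its call (adjusted p = 0.0535). The class sums above therefore mix a change in the share of clusters with changes inside them, and fits within clusters were added after the class results had been seen.

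In every cluster synthesis genes were called lower in anemic mice and Insig2 was called higher. Clusters 12 and 22 were shallow, with medians of 790 and 712 UMIs per cell, near the lower limit of 500. Their erythroid markers averaged 8067 and 10191 CPM of all UMIs in anemic mice, against 1464 to 2601 in the other clusters. The part of RNA released from broken cells in these clusters was not tested. The genes called were 8 of 20 tested in cluster 12, 4 of 11 in cluster 22, 10 of 28 in cluster 23, 7 of 25 in cluster 26 and 5 of 16 in cluster 28. Over all genes tested the shares called were 8.20%, 5.47%, 4.74%, 7.04% and 5.43%, with 3.40%, 2.12%, 1.79%, 2.93% and 2.54% lower and 4.79%, 3.36%, 2.94%, 4.11% and 2.89% higher. In each cluster Insig2 was the only gene of the pathway called higher and the rest were called lower. The median log2 fold change of the tested genes of both synthesis arms was -0.91, -0.70, -0.87, -0.76 and -0.63 in clusters 12, 22, 23, 26 and 28, against -0.03 to -0.00 over all genes.

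**Figure D2:**
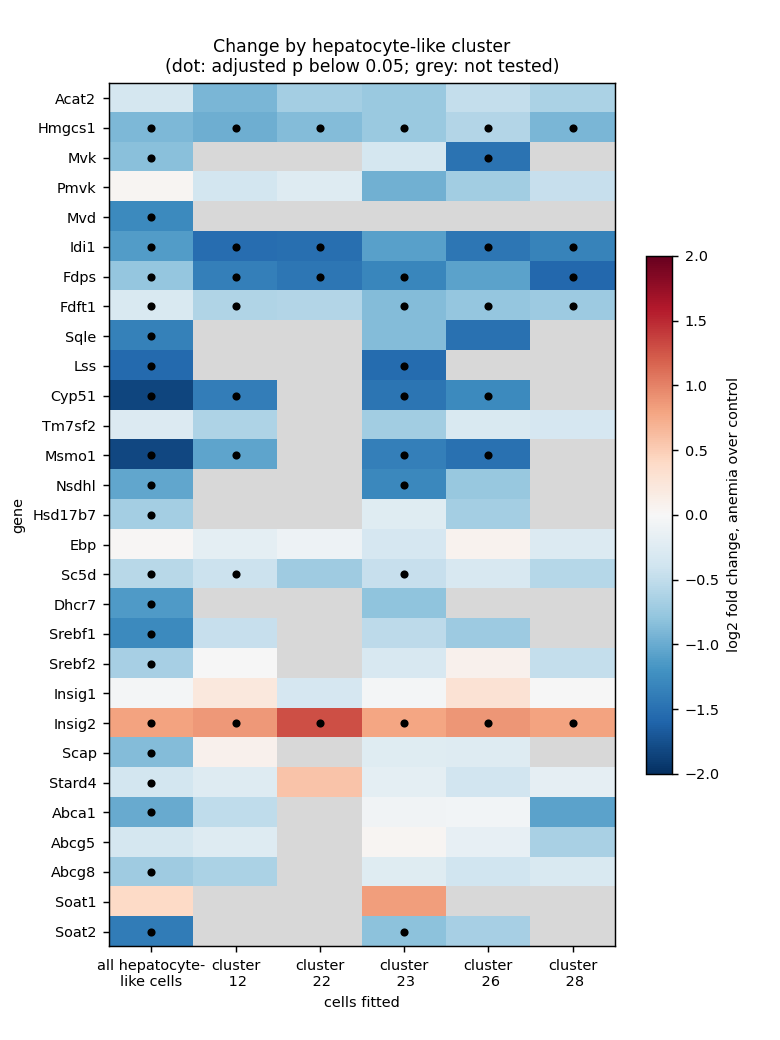
Log2 fold change (anemia over control, colour) of the 29 genes in all hepatocyte-like cells and in each of 5 clusters fitted alone. Dots mark an adjusted p below 0.05 and grey cells were under the count filter. Hmgcs1 is blue and dotted in all 5 clusters and Insig2 red and dotted, whereas 10 genes (Mvd, Sqle, Dhcr7, Hsd17b7, Stard4, Abca1, Abcg8, Srebf1, Srebf2 and Scap) carry a dot only for the class as a whole.

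Of the 22 genes called in the class, 7 were called in at least 3 clusters, 5 in 1 or 2, and 10 in none. The same split was not counted over all genes called in the class, so these counts have no background share. The 7 were Hmgcs1, Idi1, Fdps, Fdft1, Cyp51, Msmo1 and Insig2. Hmgcs1, the first enzyme after the shared acetyl-CoA step, was called in 5 of 5 clusters, with log2 fold changes from -0.98 to -0.59, and Insig2 in 5 of 5, from 0.79 to 1.28. Idi1 was called in 4 of 5 clusters, from -1.52 to -1.09, and Fdps in 4 of 5, from -1.56 to -1.07. Fdft1, at -0.30 in the class, had log2 fold changes of -0.87 to -0.59 inside the clusters and was called in 4 of 5. Cyp51 and Msmo1 were tested in 3 clusters and called in all 3, from -1.47 to -1.27 and from -1.49 to -1.06. Without anemia 2 and anemia 3 the same 7 genes were called in at least 3 clusters. Leaving out 1 mouse at a time gave 5 to 8 genes. Idi1 dropped out without control 1, control 5, anemia 1 or anemia 5, Cyp51 without control 5 and Msmo1 without control 6, and Sc5d came in without control 3. Cluster by cluster, the calls of Fdps held in every such fit, and that of Insig2 was lost only in cluster 28 without control 4 (adjusted p = 0.0509). Those of Hmgcs1 held in clusters 12, 23 and 28 and were lost in cluster 22 without control 1, 2, 4 or 6 or anemia 1, 5 or 6, and in cluster 26 without control 1 or 5 or anemia 1 or 5 (adjusted p 0.0522 to 0.186). That of Fdft1 was lost in cluster 23 without control 1, control 6 or anemia 5 (adjusted p 0.0531 to 0.0840).

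The summed level of the 18 synthesis genes was lower in anemic mice by a like ratio in each cluster. In cluster 23 it was 909 ± 152 (SD, n = 6) CPM of all UMIs in controls and 554 ± 99.2 in anemic mice. In cluster 12 it was 1027 ± 188 and 591 ± 92.5. The ratio of the group means was 0.558 to 0.664 over the 5 clusters and 0.598 in the whole class. No p was computed for this sum, since its genes had been chosen with results known.

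**Figure D3:**
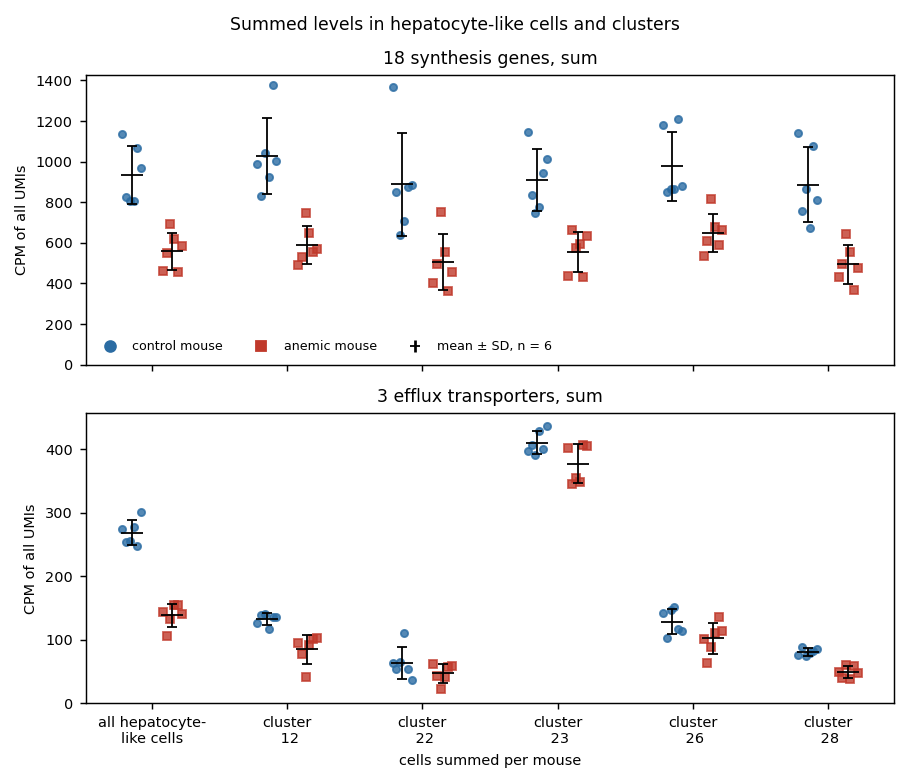
Summed level per mouse (CPM of all UMIs) of the 18 synthesis genes, top, and of the 3 efflux transporters, bottom, in all hepatocyte-like cells and in 5 clusters. Circles are control and squares anemic mice, with mean ± SD (n = 6). The synthesis sum is lower in anemic mice at about the same size everywhere, while the efflux sum of the class drops from 268 to 139 CPM although it is 409.9 and 377 CPM in cluster 23.

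The 10 genes called in the class and in no cluster came from both synthesis arms, the regulators and the transporters. Among the enzymes, Sqle had log2 fold changes of -1.49 and -0.87 in the 2 clusters where it was tested (adjusted p 0.0514 and 0.253), Hsd17b7 of -0.68 and -0.23 in 2 (adjusted p 0.327 and 0.738) and Dhcr7 of -0.80 in 1 (adjusted p = 0.0842), while Mvd passed the count filter in none. Stard4 lay between -0.39 and 0.57 in all 5 (adjusted p 0.467 to 0.809). Abcg8 lay between -0.63 and -0.24 in 4 (adjusted p 0.182 to 0.689). Abca1, at -1.01 in the class, had log2 fold changes of -0.07 in cluster 23 and -0.05 in cluster 26, and of -0.51 and -1.06 in clusters 12 and 28 (adjusted p 0.107 to 0.947). In control mice its mean level was 288 CPM of all UMIs in cluster 23, against 12.0 to 36.5 in the other 4. Srebf1 was also highest there, with 99.1 CPM of all UMIs in cluster 23 and 13.2 to 37.8 elsewhere, and its log2 fold changes were -0.73 to -0.46 in the 3 clusters where it was tested (adjusted p 0.0881 to 0.502). Scap, at 52.5 CPM of all UMIs in cluster 23 and 3.66 to 17.0 elsewhere, had log2 fold changes of -0.26 to 0.09. Srebf2 stood at 40.0 CPM of all UMIs in cluster 23 and 10.2 to 16.7 elsewhere, with log2 fold changes of -0.48 to 0.09. For Abca1, Srebf1, Scap and Srebf2 the class-level decrease moved with the smaller share of cluster 23 in anemic mice, and its part was not tested. A call missed inside a cluster does not show that a gene stayed level there, since clusters held fewer UMIs than the class.

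Fdps and Fdft1 had the opposite layout. Fdps stood at 152 and 138 CPM of all UMIs in clusters 22 and 28 of control mice, those that took a larger share in anemia, against 36.2 in cluster 23. Fdft1 stood at 187 and 184 in clusters 22 and 28 and 65.9 CPM of all UMIs in cluster 23. Their log2 fold changes were more negative inside every cluster than in the class. Pmvk, at 0.04 in the class, was negative in all 5 clusters (-0.96 to -0.26) and called in none. Acat2 was negative in all 5 as well (-0.91 to -0.48) and called in none. Of the remaining genes, Sc5d was called lower in clusters 12 and 23, Mvk in cluster 26, and Lss, Nsdhl and Soat2 in cluster 23. Each of these 6 calls was lost when 1 of some mice was left out, namely Sc5d in cluster 12 without control 4, 5 or 6 or anemia 1, 2 or 6 and in cluster 23 without control 1, 4, 5 or 6 or anemia 3 or 5, Mvk without control 1, 3 or 5 or anemia 1 or 4, Nsdhl without control 1, 3 or 5 or anemia 3, 4 or 5, and Lss and Soat2 without anemia 4 or 5 (adjusted p 0.0503 to 0.113). Mvd and Npc1l1 could be tested in no cluster. Mvk in cluster 26 was near the count filter, passing it in 11 of the 12 fits without 1 mouse. Whether Mvk, Lss, Nsdhl and Soat2 passed it only through their control UMIs, which would favour a lower call, was not checked. Soat2, at -1.41 in the class, stood at -0.82 in cluster 23 and -0.66 in cluster 26, and the part of the cluster shares was not tested.

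Levels in the other classes were compared in control mice as CPM of all UMIs. Of the 30 genes, 16 were highest in hepatocyte-like cells, 4 in cholangiocyte-like, 3 each in NK-like and dendritic-like cells, 2 in macrophage-like and 1 each in endothelial-like and pre-B-like cells. Sc5d stood at 239 ± 33.1 (SD) CPM of all UMIs in hepatocyte-like cells and 37.3 ± 9.38 in cholangiocyte-like cells, the next class. Insig2 stood at 162 ± 12.1 and 35.5 ± 12.1 CPM of all UMIs in the same order. In both genes each control mouse was higher in hepatocyte-like cells. Abca1 was highest in macrophage-like cells, 878 ± 86.5 CPM of all UMIs, followed by monocyte-like cells at 228 ± 18.6. Soat1, the esterification enzyme of macrophages, kept that order with 252 ± 12.0 and 177 ± 26.3 CPM of all UMIs. Srebf2 was highest in dendritic-like cells, 160.2 ± 10.1 CPM of all UMIs, and Stard4 in endothelial-like cells, 65.0 ± 2.15. For 15 of the 30 genes, Cyp51, Insig1, Nsdhl, Mvd and Pmvk among them, the ranges of control mice overlapped between the highest class and the next.

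**Figure D4:**
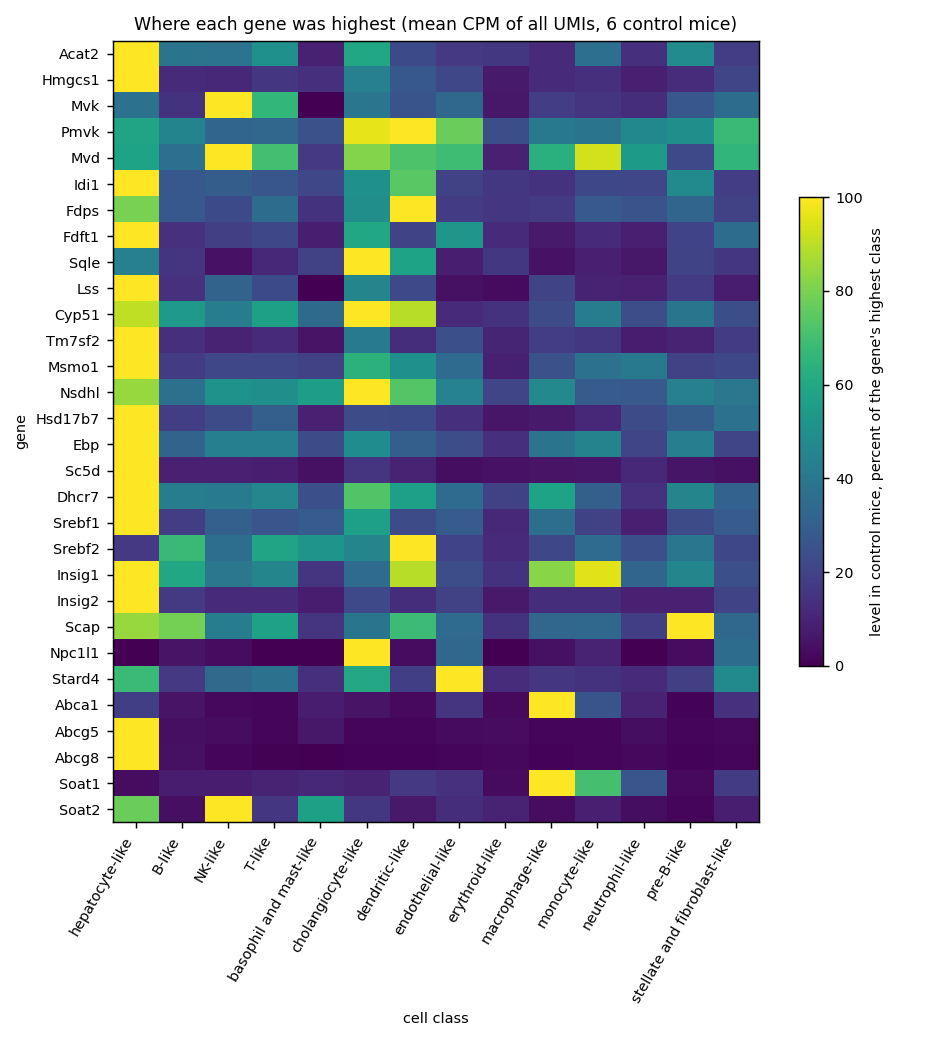
Mean level of each gene over 6 control mice in 14 cell classes (CPM of all UMIs), as a percent of that gene's highest class. The hepatocyte-like column is at 100 for 16 of the 30 genes, Abcg5 and Abcg8 are close to 0 outside it, and Abca1 and Soat1 peak in macrophage-like cells.

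RNA released from broken hepatocytes can enter droplets of other cells. In control mice the 10 hepatocyte markers stood in the other classes at 1.51% (pre-B-like) to 5.06% (B-like) of their hepatocyte-like level. Abcg8 was at or below that percent in all 13 classes and Abcg5 in 8, and the source of these levels was not tested. The remaining genes were above it, except Mvk and Lss in basophil and mast-like and Lss in erythroid-like cells. In endothelial-like cells of controls, for example, the markers stood at 1.95% and Hmgcs1 at 21.3% of the hepatocyte-like level. In anemic mice none of 29 genes was at or below the marker percent in B-like, dendritic-like, endothelial-like or erythroid-like cells. The same held in monocyte-like, pre-B-like and stellate and fibroblast-like cells, so that Abcg8 and Abcg5 were above it in all of these. Doublets, droplets with RNA of more than 1 cell, were called for 70.0% of cholangiocyte-like, 60.2% of stellate and fibroblast-like and 8.88% of hepatocyte-like cells.

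Outside hepatocyte-like cells, 9 of 307 tested pairs of gene and class were called, 5 of 29 in endothelial-like (17.2%) and 4 of 27 in stellate and fibroblast-like cells (14.8%). Over all genes 17.9% were called in the endothelial-like class (10.2% lower, 7.65% higher) and 16.9% in the stellate and fibroblast-like class (8.04% lower, 8.82% higher), so that the members' share was close to, and not above, that of all genes in both classes. In endothelial-like cells Abca1 rose. It stood at 119 to 164 CPM (median 138) in the control mice and 260.1 to 471 CPM (median 278) in the anemic mice, without overlap (log2 fold change 1.12, SE 0.14, adjusted p = 0.000167), and anemia 5 was far above the other anemic mice, which reached 299.7 CPM. Tm7sf2 fell, from a range of 5.10 to 9.38 CPM (median 7.00) in the control mice to a range of 2.92 to 4.93 CPM (median 3.77) in the anemic mice (log2 fold change -0.91, SE 0.17, adjusted p = 0.00273), also without overlap. Fdft1 stood at 45.4 to 64.3 CPM (median 55.8) in the control mice and 35.8 to 47.8 CPM (median 42.5) in the anemic mice (log2 fold change -0.41, SE 0.09, adjusted p = 0.00792), with overlap. Pmvk (log2 fold change -0.46, SE 0.14, adjusted p = 0.0338) and Npc1l1 (log2 fold change -1.58, SE 0.44, adjusted p = 0.0228) were called lower too. Npc1l1, the intestinal sterol importer, rested on 58 control and 15 anemic UMIs and lost its call without control 2 (adjusted p = 0.0524). It passed the count filter, a mean of 5 UMIs over all mice, only through its control UMIs, so that a lower call was favoured in advance. Pmvk lost its call without control 2, 3, 4 or 6 or anemia 1 or 4 (adjusted p 0.0505 to 0.0707).

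The endothelial-like class also changed in make-up. Of its 7 clusters, cluster 2 supplied a mean of 32.96% of the UMIs of the class in control and 18.8% in anemic mice, cluster 10 supplied 32.7% and 42.7%, and cluster 24 supplied 10.9% and 18.4%. The class sums therefore mix this shift with changes inside clusters, and 5 clusters were fitted alone after the class results had been seen. Over all genes 15.4%, 18.3%, 1.61%, 13.6% and 9.05% were called in clusters 2, 10, 24, 25 and 33. Abca1 was called higher in clusters 2, 10, 24 and 33, with log2 fold changes of 1.08, 1.16, 0.62 and 1.13, and stood at 0.19 in cluster 25 (adjusted p = 0.582). Its call in cluster 24 was lost without control 1, 4 or 5 (adjusted p 0.0548 to 0.0590). Tm7sf2 was called lower in clusters 2 and 10 (-1.02 and -1.41) and stood at -0.34 and 0.10 in clusters 33 and 24 (adjusted p = 0.617 and 0.956). Fdft1 was called lower in clusters 2 and 10 (-0.45 and -0.55) and Pmvk in clusters 2 and 33 (-0.55 and -0.58). The Fdft1 call in cluster 2 was lost without control 5 or 6 or anemia 1 or 5 (adjusted p 0.0619 to 0.0684), and the Pmvk call in cluster 33 without any mouse other than anemia 1 or anemia 2 (adjusted p 0.0543 to 0.103). Npc1l1 passed the count filter in none of the 5. Ebp, not called in the class, was called higher in cluster 10 (0.40, adjusted p = 0.0449), a call that the omission of any of 8 mice ended (adjusted p 0.0512 to 0.109). With sex as a covariate Pmvk lost its class call (adjusted p = 0.0732), and with the replicate number as a block Npc1l1 did (adjusted p = 0.0526). In the endothelial-like cells hepatocyte markers summed to 2018 to 3547 CPM of all UMIs in controls and 420.01 to 2127.5 in anemic mice, and erythroid markers to 256 to 783 and 1146 to 2665. In cells at or below the median of hepatocyte RNA, Abca1, Tm7sf2, Fdft1 and Pmvk were called in the same direction (log2 fold changes 1.09, -0.90, -0.39 and -0.47).

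In stellate and fibroblast-like cells Idi1 and Srebf2 were called higher and Pmvk and Fdft1 lower. Idi1 stood at 8.37 to 12.4 CPM (median 9.98) in the control mice and 12.3 to 18.8 CPM (median 13.8) in the anemic mice (log2 fold change 0.46, SE 0.14, adjusted p = 0.0343). Pmvk stood at 27.1 to 38.9 CPM (median 31.9) in the control mice and 19.0 to 28.9 CPM (median 23.7) in the anemic mice (log2 fold change -0.40, SE 0.13, adjusted p = 0.0415). Fdft1 stood at 27.1 to 45.8 CPM (median 38.0) in the control mice and 20.1 to 32.9 CPM (median 27.7) in the anemic mice (log2 fold change -0.42, SE 0.14, adjusted p = 0.0442). The groups overlapped in all 3. The remaining call was Srebf2 (log2 fold change 0.37, SE 0.12, adjusted p = 0.0463). Each of these 4 calls depended on single mice, the omission of any of 8 ending it (adjusted p 0.0506 to 0.124). For Idi1 these were controls 1, 2, 4 and 6 and anemia 2, 3, 4 and 6, for Pmvk controls 1, 3, 4 and 6 and anemia 1, 2, 3 and 6, for Fdft1 controls 2, 4, 5 and 6 and anemia 2, 3, 5 and 6, and for Srebf2 controls 1, 2, 4, 5 and 6 and anemia 2, 4 and 6. Of these cells 60.2% were called doublets, and without doublets too few cells were left in a mouse to fit the class. In cells at or below the median of hepatocyte RNA all 4 missed the threshold (adjusted p 0.0760 to 0.162). With sex as a covariate Pmvk, Fdft1 and Srebf2 lost their calls (adjusted p 0.0824 to 0.105), and with the replicate number as a block Pmvk and Srebf2 did (adjusted p 0.0568 and 0.0732). Sums over marker lists of other cell types moved in these cells. Endothelial markers summed to 2737 to 4495 CPM of all UMIs in controls and 1745 to 3765 in anemic mice, hepatocyte markers to 1538 to 2835 and 449 to 1774.5, and erythroid markers to 279 to 1142 and 1752 to 3362. Pre-B markers summed to 286 to 476 CPM of all UMIs in controls and 579.97 to 863 in anemic mice, without overlap. Neutrophil markers summed to 108 to 282 and 199.75 to 1235, and B markers to 182 to 707 and 138 to 868, with overlap. The sums were not split by gene, so they do not show which cells the RNA came from. The part of these markers in the 4 calls was not tested. In this class too the clusters shifted. Of the UMIs of the class, cluster 38 supplied a mean of 56.1% in control and 32.5% in anemic mice, and cluster 29 supplied 20.8% and 38.7%. Fitted alone after the class results had been seen, clusters 29, 38 and 40 had 0.404%, 6.88% and 0.227% of all genes called. Pmvk was called in cluster 38 (log2 fold change -0.68, adjusted p = 0.0277), a call lost without control 1, 3, 4 or 6 or anemia 1 or 5 (adjusted p 0.0519 to 0.0913). Abca1, not called in the class, was called higher in cluster 38 (log2 fold change 0.96, adjusted p = 0.000603), also without any 1 mouse. The cells of cluster 38 had a median of 15749 UMIs, 7.08 times the median of their own libraries, and endothelial markers came next to the stellate and fibroblast markers in them (mean z-scores over clusters of 1.80 and 2.91). Abca1 rose in endothelial-like cells too, and the part of endothelial RNA in the cluster 38 call was not tested. Idi1, Srebf2 and Fdft1 kept the direction of the class in all 3 clusters and missed the threshold in each (adjusted p 0.195 to 0.992). In the other 11 classes edgeR called 0 of 251 pairs, with 28 at an unadjusted p below 0.05. DESeq2 called 1 each in the B-like, erythroid-like and macrophage-like classes, with no share over all genes given here. By edgeR, genes at that unadjusted p numbered 3010 of 14477 in macrophage-like, 2026 of 12079 in B-like and 1746 of 12339 in pre-B-like cells. They were 1641 of 10629 in neutrophil-like, 1637 of 12102 in dendritic-like, 1574 of 11784 in monocyte-like and 1406 of 12044 in NK-like cells. Erythroid-like cells had 1376 of 11201, cholangiocyte-like 856 of 9575, T-like 583 of 9519, and basophil and mast-like 276 of 2808. Over all genes these classes had few calls, with 2.46% in macrophage-like, 1.48% in pre-B-like, 1.00% in B-like, 0.677% in basophil and mast-like, 0.616% in erythroid-like and 0.545% in dendritic-like cells. The share was 0.301% in neutrophil-like, 0.289% in monocyte-like, 0.116% in NK-like, 0.0735% in T-like and 0.0104% in cholangiocyte-like cells.

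Whether the change differed between classes was tested directly, with each mouse as a block, for hepatocyte-like against endothelial-like and against macrophage-like cells. Against endothelial-like cells 18 of 28 genes differed, 15 more negative in hepatocyte-like cells, and over all genes 39.6% differed, 19.3% more negative in hepatocyte-like cells. Against macrophage-like cells 12 of 28 differed, 11 more negative in hepatocyte-like cells, against 36.5% and 17.1% of all genes. The macrophage-like class, with 10729 control and 7148 anemic cells, changed in make-up too. Its cluster 9 held 4667 control and 1961 anemic cells, and cluster 13 held 2593 and 3164. The widest gap was that of Abca1, with a difference of log2 fold changes of -2.06 (SE 0.15, adjusted p = 6.48e-08). In class sums Abca1 fell in hepatocyte-like and rose in endothelial-like cells. Inside hepatocyte-like clusters it was called in 0 of 4, with -1.06 to -0.05, and Srebf1, Srebf2 and Scap were called in none. The tests compare class sums, and the part of the shifts in cluster shares was not tested. Against macrophage-like cells the Abca1 difference was -1.05 (SE 0.15, adjusted p = 0.000128). Cyp51 differed by -1.79 (SE 0.30, adjusted p = 0.000142) against endothelial-like and by -1.26 (SE 0.30, adjusted p = 0.00382) against macrophage-like cells. Msmo1 differed by -1.50 (SE 0.27, adjusted p = 0.000277) and by -1.34 (SE 0.29, adjusted p = 0.00215), in that order. Hmgcs1 differed by -0.76 (SE 0.15, adjusted p = 0.000474) and -0.73 (SE 0.14, adjusted p = 0.000995). Insig2 differed upward in both, by 0.76 (SE 0.12, adjusted p = 6.22e-05) and by 0.73 (SE 0.14, adjusted p = 0.000938). Srebf1, Scap, Mvd, Dhcr7, Nsdhl and Idi1 were also called in both tests, all more negative in hepatocyte-like cells, while Lss was called against macrophage-like cells and was not tested against endothelial-like cells. The 2 tests share the hepatocyte-like sums.

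Sqle, Fdps, Srebf2, Soat2 and Stard4 were more negative in hepatocyte-like than in endothelial-like cells, and Pmvk and Tm7sf2 less so. None of these was called against macrophage-like cells. Inside hepatocyte-like clusters Pmvk was negative in all 5 (-0.96 to -0.26), against 0.04 in the class. Whether endothelial-like and macrophage-like cells differ was not tested. Ebp, Insig1, Fdft1, Acat2, Mvk, Hsd17b7, Sc5d, Soat1 and Abcg5 passed in neither test, and Abcg8 was tested against endothelial-like cells only and did not pass. For Sc5d against macrophage-like cells the difference was 0.00 (SE 0.14, adjusted p = 0.99). With cells limited to a mitochondrial share of at most 10%, a limit below the median of cluster 23, 9 and 6 of 28 genes differed from endothelial-like and macrophage-like cells, against 13.1% and 7.53% of all genes. Without 1 mouse, calls against endothelial-like cells were lost without control 5, control 6 or anemia 1 for Fdps, anemia 4 for Tm7sf2 and anemia 1 for Soat2, and without any 1 of 8 mice (controls 1, 3, 5 and 6 and anemia 1, 2, 5 and 6) for Stard4. Against macrophage-like cells Idi1 lost its call without control 1, 5 or 6 or anemia 1, 4, 5 or 6, and Nsdhl without control 1, 3 or 5 or anemia 4 or 5 (adjusted p 0.0501 to 0.126 over these fits).

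**Figure D5:**
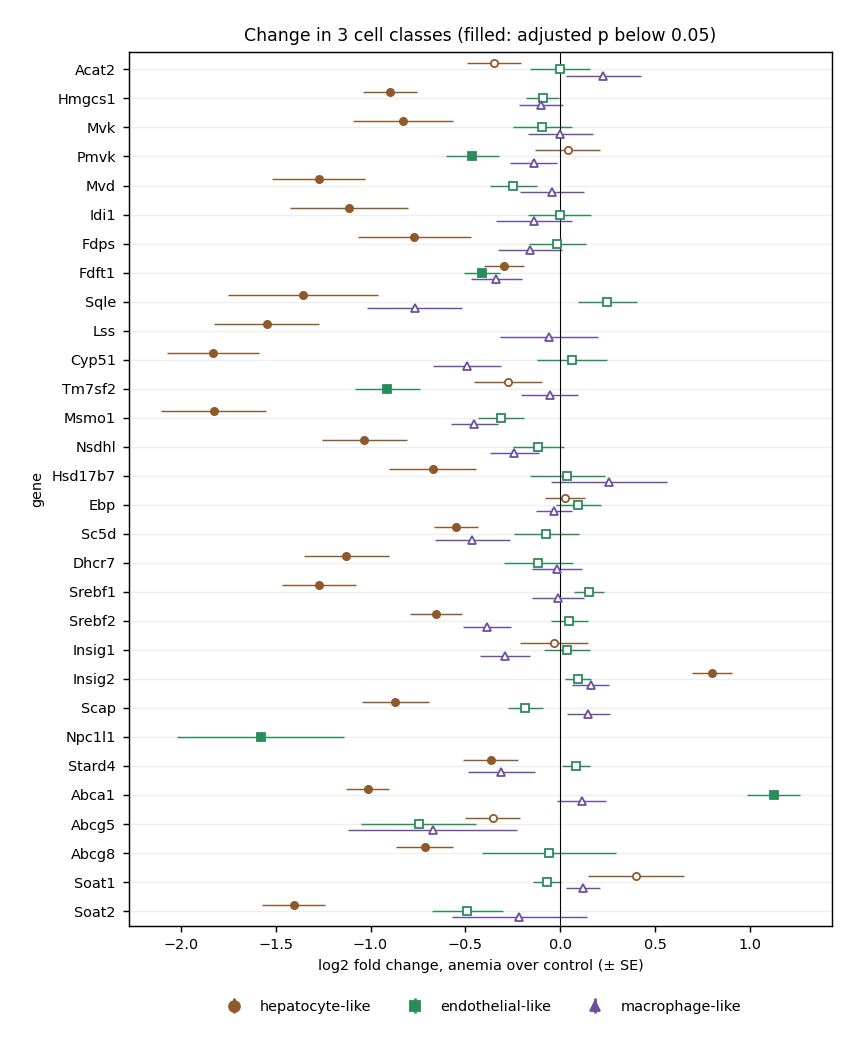
Log2 fold change (anemia over control ± SE, n = 6 mice per group) of each gene in hepatocyte-like, endothelial-like and macrophage-like cells, filled where the adjusted p was below 0.05. Most hepatocyte-like circles lie left of the other symbols, Insig2 lies to the right at 0.80, and Abca1 is at -1.01 in hepatocyte-like and 1.12 in endothelial-like cells. All values are of class sums, which include shifts in cluster shares.

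Related pathways were read in hepatocyte-like cells from 4 lists of 41 genes. All 41 were tested and 23 were called, 18 lower and 5 higher, or 56.1%, against 45.9% of all genes (24.1% lower, 21.8% higher), and their median log2 fold change was -0.21. In bile acid synthesis 5 of 11 were called, 4 lower and 1 higher, a share of 45.5% that is near the 45.9% of all genes. Baat, which joins bile acids to taurine or glycine, stood at 31.4 ± 5.33 (SD) CPM in the control and 109 ± 30.7 CPM in the anemic mice, without overlap (log2 fold change 1.78, SE 0.16, adjusted p = 7.09e-07). It was called higher in all 5 clusters as well (1.33 to 1.59). Cyp7a1, the rate-limiting enzyme of the classical route, stood at 62.4 to 178 CPM (median 136) in the control mice and 23.1 to 95.1 CPM (median 66.3) in the anemic mice (log2 fold change -0.91, SE 0.26, adjusted p = 0.00865), with overlap, and inside clusters was called only in cluster 28 (-1.17), a call lost without control 4 or 5 or anemia 6 (adjusted p 0.0583 to 0.101). Cyp7b1 and Slc27a5 fell by 1.67 and 0.73 on the log2 scale in the class and were called in no cluster. Cyp7b1 stood at -0.78 in cluster 23, the one where it was tested, and Slc27a5 at -0.85 to -0.12. Hsd3b7 fell by 0.37 and was called lower in all 5 clusters (-0.59 to -0.51), although in cluster 22 without 8 single mice and in cluster 28 without 6 it was not (adjusted p 0.0538 to 0.130). Cyp8b1, the sterol hydroxylase that makes cholic acid, stood at 0.03 in the class and was called higher in cluster 23 (0.66, adjusted p = 0.00277). Amacr, a racemase of the bile acid side chain, stood at -0.09 in the class and was called lower in clusters 12, 22 and 26 (-0.55, -0.48 and -0.45, adjusted p = 0.0264, 0.0410 and 0.00694). Its call in cluster 26 held without any 1 mouse, that in cluster 12 was lost without control 1 or 5, and that in cluster 22 without any 1 of 8 mice (adjusted p 0.0503 to 0.104). Akr1d1, a reductase of the sterol ring, stood at -0.21 in the class and was called lower in cluster 12 (-0.50, adjusted p = 0.0313), a call lost without any 1 of 6 mice (adjusted p 0.0523 to 0.0660).

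Of 6 nuclear receptors and partners 4 were called, 3 higher and 1 lower (66.7% against 45.9% of all genes). Nr0b2, or SHP, a repressor induced by the bile acid receptor, stood at 27.5 to 56.4 CPM (median 42.0) in the control mice and 82.9 to 122 CPM (median 101) in the anemic mice, without overlap (log2 fold change 1.26, SE 0.15, adjusted p = 5.73e-06), and was called higher in clusters 22, 23, 26 and 28. Its call was lost in cluster 23 without anemia 1 and in cluster 28 without control 4, 5 or 6 or anemia 1 (adjusted p 0.0561 to 0.0842). Nr1h4, the bile acid receptor FXR itself, fell in the class (log2 fold change -0.43, SE 0.09, adjusted p = 0.000808). Inside clusters Nr1h4 stood at -0.36 to 0.05, with 0.04 in cluster 22 and 0.05 in cluster 23, and was called in none (adjusted p 0.308 to 0.965). Nr1h3 and Nr1h2, the oxysterol receptors LXR alpha and beta, rose by 0.50 and 0.46 on the log2 scale in the class and were called in no cluster (-0.0049 to 0.41 and 0.09 to 0.25), and Nr1h2 lost its class call without any 1 of 9 mice (adjusted p 0.0612 to 0.0935). In fatty acid synthesis 8 of 14 were called, 7 lower (57.1% against 45.9% of all genes, of which 24.1% were lower). Elovl5 and Fads1, which lengthen and desaturate fatty acids, fell by 1.10 and 0.97 on the log2 scale, and both were also called lower in clusters 12, 23 and 26 (-0.64 to -0.40 and -0.66 to -0.54). The Elovl5 call in cluster 26 was lost without control 1, 2, 3 or 6 or anemia 2 or 3, and the Fads1 call in cluster 12 without control 1 or 3 or anemia 1 or 3 (adjusted p 0.0529 to 0.0729). Fads2 fell by 0.58 and was called lower in clusters 12 and 23. Acaca, Fasn, Gpam and Pnpla3 fell by 0.75, 0.87, 0.48 and 1.30 in the class and were called in no cluster, with 0.21 for Acaca and 0.37 for Gpam in cluster 23 and -0.29 for Pnpla3 there, the one cluster where it was tested. Thrsp, a lipogenic regulator, rose (log2 fold change 2.35, SE 0.44, adjusted p = 0.000421) with overlapping groups. In other sterol handling 6 of 10 were called (60.0%, against 45.9% of all genes), all lower, namely Npc1 (-1.04), Nceh1 (-0.79), Osbp (-0.69), Lipa (-0.66), Scarb1 (-0.62) and Lcat (-0.28), and none of the 6 was called inside a cluster. Elovl6 (1.03) and Ppargc1a (0.58) were called higher in cluster 23 and Mid1ip1 (-0.74) lower in cluster 28 without a class call, and each call was lost without at least 1 mouse (1, 9 and 8 mice, adjusted p 0.0531 to 0.134). Of the 18 related genes called lower in the class, 5 were called lower in at least 1 cluster, and another 5, Acaca, Gpam, Nr1h4, Lcat and Nceh1, had a positive log2 fold change in at least 1.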

How the data were processed

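Livers of 12 pups were measured, 1 library per mouse. Per the labels, reads were processed with Cell Ranger on mm10, version 7.0.0 per the file headers. The deposited values are UMI counts per gene and barcode, without normalization. Barcodes were kept between 500 and 50000 UMIs if no more than 50% of these were mitochondrial. After log scaling, 2000 variable genes, 20 principal components and 20 neighbours gave Leiden clusters at resolution 2 (leidenalg 0.10.2, igraph 0.11.9). A cluster was named from at least 3 raised markers, and simulated doublets marked doublets, which stayed in. Counts were summed per mouse and class, for classes with at least 20 cells in every mouse. Genes averaging 5 or more UMIs per mouse were fitted with edgeR 4.0.16 (TMM factors, quasi-likelihood test, R 4.3.3), and mitochondrial and ribosomal protein genes were left out. DESeq2 1.42.0 and limma 3.58.1 were alternatives. On simulated hepatocyte-like counts 168 of 200 changed genes were recovered, with 4 false calls among 11209 genes. At a log2 change of 1 it was 73 of 100 and at 2 it was 95 of 100. In the simulation all other genes were unchanged and cluster shares did not shift, unlike in the real counts. It therefore does not give the error rate of these data. The members and lists were chosen with earlier results of these data known. All 30 genes were named, with values by mouse for those called in hepatocyte-like cells and up to 3 per other class. Gene coordinates are those of GENCODE on GRCm38. Intervals and floors cover counting error only.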

Additional observations from a re-analysis of the deposited data

Results flagged for a closer look

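Abca1 in endothelial-like cells was flagged because anemia 5, at 471 CPM, lay far from the other anemic mice, at 260.1 to 299.7. Scap in hepatocyte-like cells was flagged because control 5, at 25.2 CPM, lay below the other controls, at 36.8 to 40.5. Idi1 in stellate and fibroblast-like cells was flagged because anemia 2, at 18.8 CPM, lay above the other anemic mice, at 12.3 to 14.4. These are 3 of 62 groups of 6 mice tested, and chance flags about 1 in 20 groups.

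The change with anemia differed between hepatocyte-like and endothelial-like cells for 18 of 28 genes, by the test of that difference, and for 39.6% of all genes. The difference of log2 fold changes, hepatocyte-like minus endothelial-like, was below 0 for Abca1 (-2.06), Cyp51 (-1.79), Sqle (-1.55), Msmo1 (-1.50), Srebf1 (-1.37), Idi1 (-1.10), Dhcr7 (-0.95), Mvd (-0.94), Nsdhl (-0.86), Soat2 (-0.82), Hmgcs1 (-0.76), Fdps (-0.72), Srebf2 (-0.65), Scap (-0.63) and Stard4 (-0.41). It was above 0 for Pmvk (0.61), Tm7sf2 (0.70) and Insig2 (0.76). These values, and those against macrophage-like cells below, compare class sums with their shifts in cluster shares.

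The change with anemia differed between hepatocyte-like and macrophage-like cells for 12 of 28 genes, by the test of that difference. Over all genes 36.5% differed, so that many differences are found for genes at large. The difference of log2 fold changes, hepatocyte-like minus macrophage-like, was below 0 for Lss (-1.35), Msmo1 (-1.34), Cyp51 (-1.26), Srebf1 (-1.25), Mvd (-1.16), Abca1 (-1.05), Dhcr7 (-0.99), Scap (-0.97), Idi1 (-0.83), Hmgcs1 (-0.73) and Nsdhl (-0.71). It was above 0 for Insig2 (0.73).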

How the results depend on the processing

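Of the 22 genes called in hepatocyte-like cells, 14 kept their call under every alternative in which they were tested, 9 of them under all 24 and 5 under 23, since these 5 were below the filter of 50 UMIs. None of the 22 changed sign in these fits of the whole class, whereas inside single clusters Stard4, Srebf2 and Scap reached 0.57, 0.09 and 0.09. The 40 lost calls were those of Fdps, Fdft1, Hsd17b7, Stard4, Mvk, Sqle, Srebf2 and Scap, Mvk losing its call at resolution 1 and Sqle, Srebf2 and Scap at the mitochondrial limit. The number called was 16 to 25 under the alternatives for the whole class and 18 to 23 without 1 mouse. Over all genes 4687 to 5185 were called without 1 mouse. Without TMM factors, where 25 of the members were called, 3972 of all genes were lower and 1483 higher. At a mean of at least 50 UMIs, with 16 members called, it was 1942 and 1615. Fits of clusters 12, 22, 23, 26 and 28 alone, with fewer cells, called 8, 4, 10, 7 and 5 of these genes and 448, 225, 444, 473 and 331 of all genes. With a mitochondrial share of at most 10%, 2027 of all genes and 17 of the 29 were called, and 9 and 6 genes differed from endothelial-like and macrophage-like cells, against 13.1% and 7.53% of all genes. The cause was not tested.

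In the other classes the 9 pairs became 5 with sex as a covariate, and 4 of 6 control and 2 of 6 anemic mice read as female. They became 4 without doublets, where the stellate and fibroblast-like class could not be fitted and Npc1l1 was under the count filter, so that no tested call was lost. They became 4 in cells at or below the median of hepatocyte RNA, where the 4 stellate and fibroblast-like calls were lost and Npc1l1 was under the filter. Without 1 mouse they were 4 to 10, the lowest without control 4 or control 6 and 5 without control 2 or anemia 2.

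Tm7sf2 in endothelial-like cells was 0.095 in cluster 24 alone. Genes not called in hepatocyte-like cells changed sign. Pmvk was -0.16 without TMM factors, -0.074 at a mean of at least 50 UMIs, -0.25 at the mitochondrial limit, -0.037 without anemia 2 and anemia 3, and -0.10 to 0.14 without 1 mouse (-0.039 without control 2, -0.016 without control 6). Tm7sf2 was 0.021 at resolution 1. Ebp was -0.18 without TMM factors, -0.0097 without a filter, -0.090 at 50 UMIs, -0.18 at the mitochondrial limit, -0.00061 without doublets, -0.0015 with voom and -0.033 to 0.10 without 1 mouse (-0.019 without anemia 3, -0.033 without anemia 4, -0.017 without anemia 6). Insig1 was 0.10 at the mitochondrial limit, 0.17 at resolution 1 and -0.13 to 0.060 without 1 mouse (0.053 without control 1, 0.054 without anemia 5, 0.040 without anemia 1, 0.0065 without anemia 2).

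The replicate numbers did not pair the mice. Correlations of same-numbered deviations ran from -0.204 to 0.288 over 14 classes, and no class had all 6 above 0.1, the most being 4 in macrophage-like cells. With the replicate number as a block, 22 of the 29 genes, 4946 of all genes and 6 pairs in other classes were called. Abcg5 was among these 22, so that they were not the same 22 as in the main fit. With sex as a covariate 19 of the 29 genes were called lower, Abcg5 again among them, and 1 higher. Over all genes it was 2434 lower and 2308 higher. Members with few UMIs could not be tested everywhere, and Mvd passed the count filter in 0 of 5 hepatocyte-like clusters.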
